A study of Saccharomyces cerevisiae with 12 samples.

Results

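The effect of losing Top1p in cells whose Top2p was already inactive was read from the comparison of *top1Δtop2ts* with *top2ts*. Its members were the 6 arrays whose titles name these strains, 3 of each, out of 12 arrays in the series. No wild-type array entered the comparison. Both strains derive from W303a, a laboratory background of mating type a, and both carry *top2-1*, an allele whose Top2p fails at high temperature. *TOP1* was intact in *top2ts* and disrupted by the natr marker in *top1Δtop2ts*. Cells growing in YPD, a rich glucose medium, were arrested in G1 with the mating pheromone α-factor for 90 min at 25°C. They were then held for another 90 min at 37°C with more pheromone, so that both strains lacked Top2 activity and differed in Top1p. The study followed the arrest by flow cytometry. Equal numbers of cells received the poly-A spike-in RNAs before extraction, and 2 µg of total RNA was labelled for Affymetrix Yeast Genome 2.0 arrays. The methods describe 3 independent sets of experiments, and arrays of the same replicate number were treated as pairs. The other 6 arrays, of wild-type and *top1Δ* cells treated in the same way, served only to show where a gene stood in strains with active Top2p.

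DNA topoisomerases remove the supercoils that build up as a polymerase moves along the double helix, positive ahead of it and negative behind it. Top1p cuts a single strand and lets the helix turn, whereas Top2p passes an intact duplex through a break in both strands, and in budding yeast either enzyme can relax supercoils of both signs. Cells without Top1p are viable, while Top2p is essential for separating chromosomes at mitosis, which is why Top2p was inactivated by temperature in cells held in G1.

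*TOP1* transcripts were present in *top2ts* and all but gone in *top1Δtop2ts*. Its signal, scaled to the spike-ins as described below, was 1094, 1316 and 849 in the *top2ts* arrays of replicates 1, 2 and 3 and 7.80, 0.286 and 0.632 in the *top1Δtop2ts* arrays. Signals of the Tag controls, probe sets with no yeast target, had a 95th percentile of 18.4 before scaling. After scaling this level lay between 14.1 and 30.8 in the 6 arrays, and all *top1Δtop2ts* values were under that of their own array. Against the Tag level of each array *TOP1* was at least 59.8-fold lower in *top1Δtop2ts* (adjusted p = 2.05e-05 from limma). *TOP2*, which encodes the inactivated enzyme, gave 3351, 2586 and 1891 in *top2ts* and 1815, 1713 and 1438 in *top1Δtop2ts*. The groups did not overlap and the log2 change was -0.62 ± 0.17 (SE, adjusted p = 0.0116), but the call was lost with equal array medians (-0.27, adjusted p = 0.124), without replicate 1 (-0.49, adjusted p = 0.168) and without replicate 2 (-0.64, adjusted p = 0.0648). Of 11 genes for topoisomerases and their partners 7 fell, the deleted *TOP1* included, and none rose, against 45.0% and 6.46% of all genes. Among them were *HMO1* (-1.22), which encodes a chromatin protein of ribosomal genes, and *TDP1* (-0.88), whose product repairs trapped Top1p. The median of this list was -0.37 relative to all genes, and with equal array medians 6 fell and 1 rose.

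Less poly-A RNA signal was measured per cell in *top1Δtop2ts* than in *top2ts*. Each array was scaled to the mean log2 signal of its 42 spike-in probe sets, which are for the RNAs dap, lys, phe, thr and trp. Before scaling, these probe sets stood 0.04, 0.23 and -0.05 apart on the log2 scale in the 3 same-numbered pairs (*top1Δtop2ts* minus *top2ts*). The 6 probe sets for trp reached at most 17.1, below the Tag level, and moved by -0.34, 0.96 and -1.72, while the other 4 RNAs moved by 0.06 to 0.25 on average. Signals of 5449 genes, scaled in this way, summed to 70.3%, 74.3% and 65.2% of the *top2ts* mean in the 3 *top1Δtop2ts* arrays (69.9% ± 4.59, SD, n = 3, against an SD of 16.3 among *top2ts* arrays). The groups did not overlap, and the exact permutation test of 3 arrays against 3 gave p = 0.1 (two-sided), the smallest it allows. Within pairs the sums came to 65.1%, 67.2% and 80.2% of the same-numbered *top2ts* array. The *top2ts* array of replicate 3 was the lowest of its group, and without it the sum was 63.9% of the *top2ts* mean. Without the trp probe sets the pairs gave 62.3%, 73.1% and 66.1%. In the signals as deposited the sum was 73.2% ± 18.5 (SD, n = 3) of the *top2ts* mean. There the groups overlapped and the same permutation test gave p = 0.3, while the pairs gave 66.7%, 78.8% and 77.7%. In bulk RNA, fewer transcripts per cell and fewer cells that contribute RNA cannot be told apart.

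**Figure D1:**
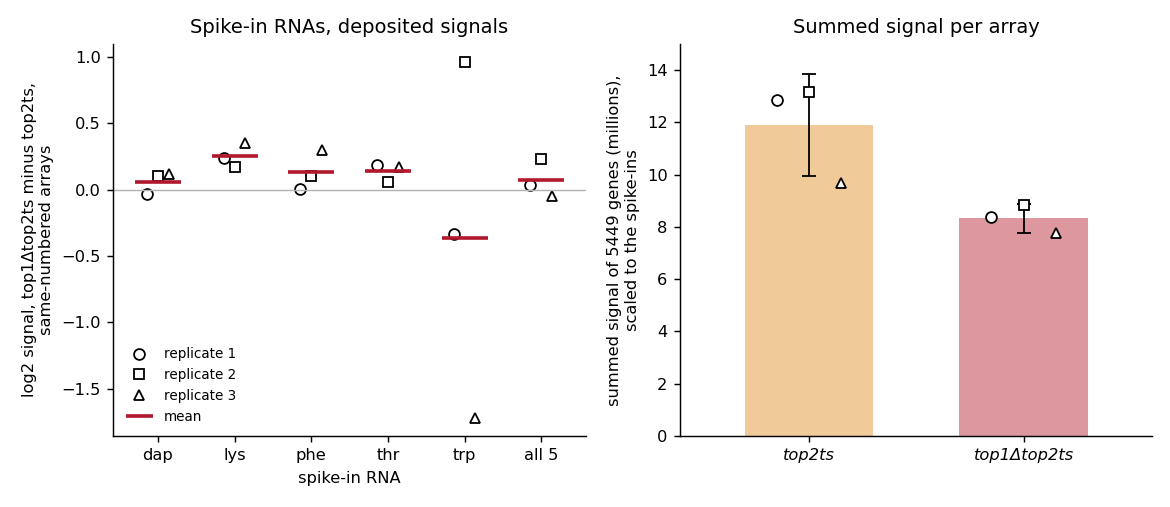
Left, log2 signal of each spike-in RNA as deposited, *top1Δtop2ts* minus *top2ts*, with a symbol for each replicate number and a bar at the mean of 3 pairs. Right, summed signal of 5449 genes per array, scaled to the spike-ins, with bars at the mean and error bars of 1 SD (n = 3). The trp RNA spreads from -1.72 to 0.96, and the *top1Δtop2ts* arrays sum to 65.2% to 74.3% of the *top2ts* mean.

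Most genes had a lower signal in *top1Δtop2ts*, and a smaller set rose against this trend. The log2 change lay below 0 for 4292 of 5449 genes (78.8%), with a median of -0.39. In the paired limma fit at an adjusted p under 0.05, 2451 genes fell (45.0% of those tested) and 352 rose (6.46%), so that 51.4% changed. Changes of 2-fold or more were downward for 626 genes (11.5%) and upward for 121 (2.22%), of which 624 (11.5%) and 119 (2.18%) also passed the test. All 3 *top1Δtop2ts* arrays lay below all *top2ts* arrays for 2178 genes (40.0%) and above them for 390 (7.16%). The median change was -0.52, -0.47 and -0.20 in the 3 pairs, and -0.59, -0.34 and -0.48 when the trp probe sets were left out of the scaling, where 3110 genes fell and 358 rose. The number that fell depended on the pairs used. It was 1322 without replicate 1, 1431 without replicate 2 and 3260 without replicate 3, and 1792 in a fit with no pairing. Of all calls 87.4% were downward. Arrays given equal medians, which sets the general fall aside, divided more evenly, with 1178 genes lower and 1003 higher (54.0% downward). For this reason changes of gene groups are also given relative to the median of all genes, which was -0.39 with spike-in scaling, -0.04 with equal medians and 0.01 after quantile normalization.

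The fall was set apart from the other strains more often by *top1Δtop2ts* than by *top2ts*. Among the 2451 genes that fell, the 3 *top1Δtop2ts* arrays lay below all 9 other arrays, wild-type and *top1Δ* included, for 1680 (68.5%) where the *top2ts* arrays did not stand apart. Over all genes tested, the *top1Δtop2ts* arrays lay below the other 9 for 1830 (33.6%) and above them for 160 (2.94%). Among those that fell, for 35 genes only the *top2ts* arrays stood apart, above the other 9, for 9 genes both did, and for 727 neither. Among the 352 genes that rose, *top1Δtop2ts* alone was beyond the other arrays for 143 (40.6%), *top2ts* alone for 30, both for 8 and neither for 171.

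Genes with high signals fell more than genes with low signals. Abundance was taken from the 6 wild-type and *top1Δ* arrays, which do not enter the change, and the genes were divided by it into 5 groups of like size. The median log2 change was -0.15 in the lowest group, -0.28, -0.37 and -0.46 in the next ones and -0.59 in the highest. Genes that fell made up 27.9% of the lowest group and 67.2% of the highest, and genes that rose 19.2% and 0.917%. Pearson's r between change and log2 signal was -0.25 across genes, and -0.26, -0.20 and -0.25 in the 3 pairs. It was -0.08 after quantile normalization, which matches the arrays at every signal level. Genes share arrays and are not independent, so no p is given. Coding length showed no such order, with r = -0.02 and medians between -0.35 and -0.47 in all 5 groups by length. Rises were more frequent near chromosome ends, although most genes that rose lay further in. Of the 98 measured genes among the 5 outermost of each end 24 rose (24.5%) and 34 fell, with a median change of -0.12. Of 428 genes in positions 6 to 20 from an end 52 rose (12.1%), and of 4920 further in 274 did (5.57%). Rises also depended on signal, and these groups by position were not compared at like signal. Among the outermost genes that rose were *YFR057W*, the *PAU* genes *PAU24*, *PAU9*, *PAU21* and *PAU14*, and *YAR068W* (2.10), while *PAU18*, *PAU4* and the *COS* genes *COS2*, *COS6*, *COS7*, *COS8*, *COS9* and *COS12* were among those that fell.

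**Figure D2:**
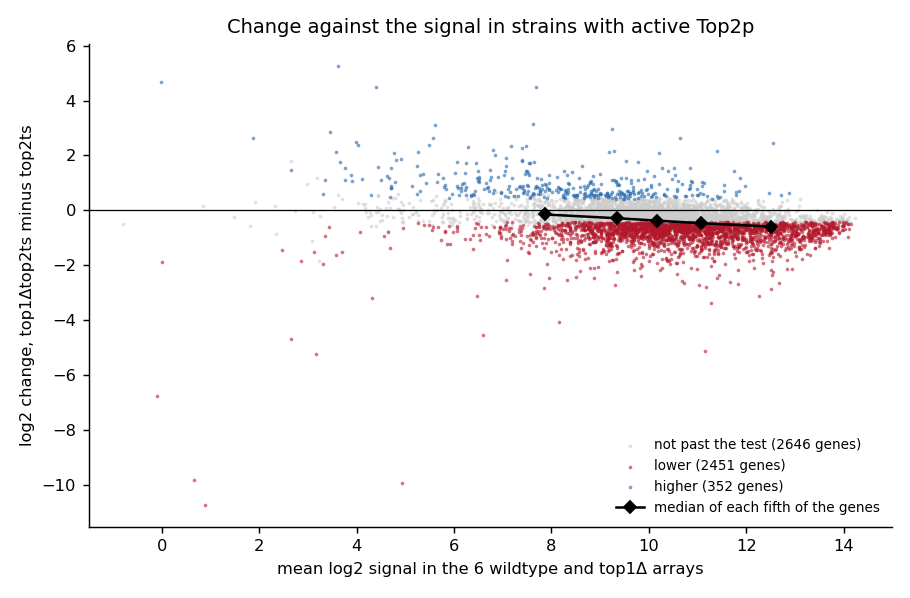
Log2 change (*top1Δtop2ts* minus *top2ts*) of 5449 genes against their mean log2 signal in the 6 wild-type and *top1Δ* arrays. Each point is a gene, coloured by whether it passed the test in limma, and diamonds mark the medians of 5 groups by signal. The medians go from -0.15 to -0.59 with rising signal, and the 352 genes that rose lie mostly at low and middle signals.

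The 15 largest falls joined several kinds of genes. *TOS6*, which encodes a cell wall protein, had signals of 3630, 2304 and 2024 in *top2ts* and only 92.0, 62.3 and 70.9 in *top1Δtop2ts*, a log2 change of -5.12 ± 0.17 (adjusted p = 3.39e-07). *PCL1*, for a G1 cyclin that binds the Pho85p kinase, went from 466, 214 and 177 to 14.7, 11.9 and 21.9, of which 2 were at the Tag level, and was at least 12.7-fold lower (adjusted p = 2.27e-05). For both genes wild-type and *top1Δ* cells were near the *top2ts* level, with mean signals of 2498 and 2100 for *TOS6* and 269 and 332 for *PCL1*. The histone genes *HTB2* and *HTA2* and the ribosomal protein gene *RPS9A*, described below, were also among them. *SHH3*, a homologue of a succinate dehydrogenase subunit gene, fell by 2.80 on the log2 scale, and *YMR230W-A*, an uncharacterized gene, was at least 5.13-fold lower.

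The remaining large falls came from genes that were high in *top2ts* alone. *AIF1*, which encodes a mitochondrial cell death effector, had signals of 1427, 1525 and 911 in *top2ts*, while the means of *top1Δtop2ts*, wild-type and *top1Δ* were 0.896, 5.58 and 3.60. Against the Tag level it was at least 70.2-fold lower in *top1Δtop2ts* (adjusted p = 4.79e-07). *COS12*, of a subtelomeric family, had 612, 733 and 359 in *top2ts* and at most 4.65 in every other array, at least 30.4-fold lower in *top1Δtop2ts*. *YGL262W*, *YNR071C* and *PDR18*, the last of which encodes an ABC transporter, showed the same order at lower signals, with falls of at least 7.58-fold, 10.4-fold and 5.25-fold. *GIS3*, of unknown function, went from 1751, 1802 and 1485 to 172, 48.6 and 44.2, and its means in wild-type and *top1Δ* were 107 and 95.7. *YPS5*, of a family of cell surface proteases, went from 171, 185 and 121 to at most 26.3 and was at least 7.96-fold lower. In these 7 genes each *top2ts* array was more than 4-fold above all other 9 arrays, and no gene had *top2ts* arrays 4-fold below. By gene order in the R64 assembly 6 of the 7 lie near a pair of chromosome ends, *COS12*, *YGL262W* and *YPS5* on the left of VII and *AIF1*, *YNR071C* and *PDR18* on the right of XIV. This count was chosen after the values were seen. Their measured neighbours went both ways, with -0.07 for *COS10*, next to *AIF1*, -1.51 for *HXT17*, 1.44 for *BSC5* and -2.16 for *YNR066C* on XIV, and -1.29 for *MNT2* and 0.91 for *ZRT1* on VII. Why the *top2ts* strain stood apart at these genes was not tested, and their falls do not describe a level below that of wild-type cells.

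**Figure D3:**
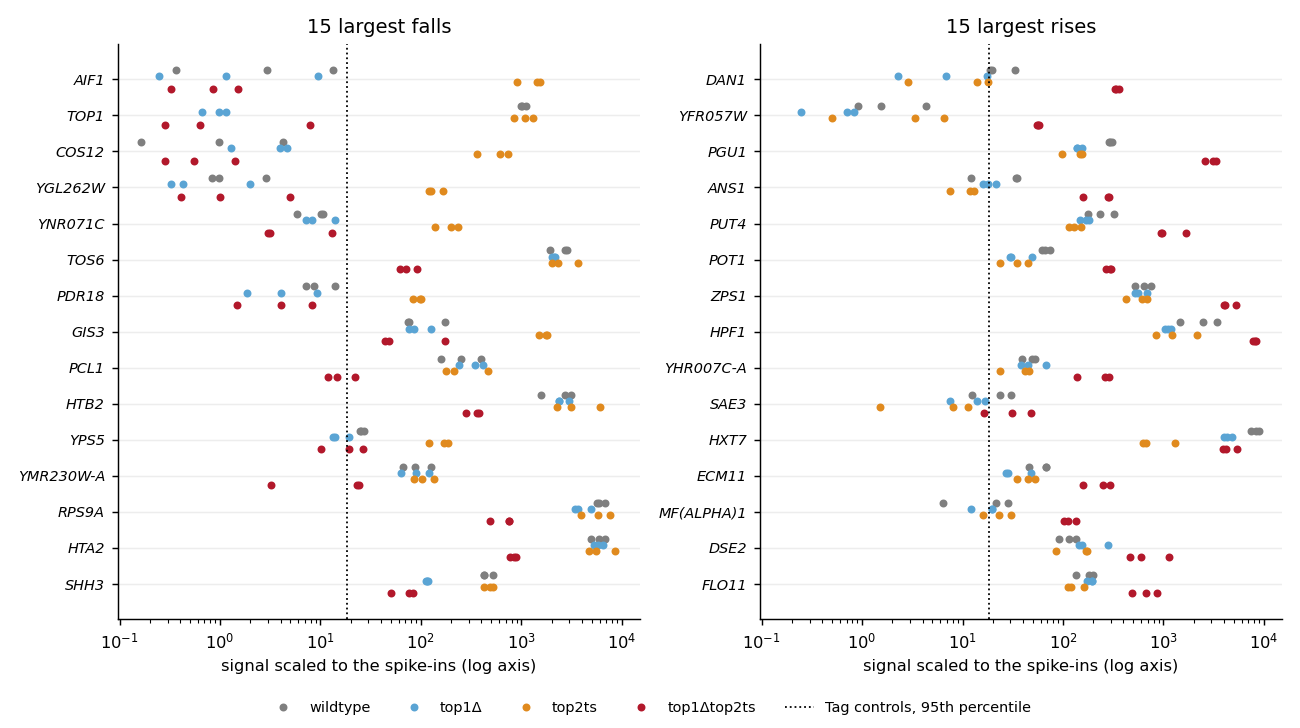
Signals scaled to the spike-ins (log axis) of the 15 largest falls and 15 largest rises in all 12 arrays, with points coloured by strain and a dotted line at the 95th percentile of the Tag controls before scaling (18.4). *AIF1*, *COS12*, *YGL262W*, *YNR071C*, *PDR18*, *GIS3* and *YPS5* are high only in *top2ts*, whereas *TOS6*, *PCL1*, *HTB2* and *RPS9A* are low only in *top1Δtop2ts*.

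Histone genes fell together and more than the typical gene. Of 10 measured genes for core and linker histones 9 fell and 0 rose, against 45.0% and 6.46% of all genes, and their median change was -1.45, or -1.06 relative to the median of all genes and -0.88 after quantile normalization. *HTB2*, for a copy of histone H2B, had 6012, 2245 and 3118 in *top2ts* and 378, 361 and 280 in *top1Δtop2ts* (log2 change -3.37 ± 0.24, adjusted p = 2.05e-05). *HTA2*, its divergently transcribed H2A partner, had 8491, 4687 and 5543 against 879, 840 and 769 (-2.87 ± 0.18). In both genes the *top1Δtop2ts* arrays were more than 4-fold below all 9 other arrays. The other H2A-H2B pair, *HTA1* (-1.51) and *HTB1* (-1.40), fell as well. The genes for histone H3 differed from each other, with -2.14 ± 0.18 for *HHT2* and -0.24 ± 0.20 for *HHT1* (adjusted p = 0.320), whose groups overlapped at 6202 to 9680 in *top2ts* and 5624 to 6914 in *top1Δtop2ts*. *HHO1*, for linker histone H1, changed by -1.86, and *HTZ1*, for the variant H2A.Z, also fell, from 1456, 989 and 828 to 486, 700 and 438. Histone copies are similar in sequence, and how far their probe sets share signal was not tested.

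Genes of the G1 to S transition fell with them. Of 17 genes for G1 cyclins and their regulators 14 fell and 1 rose, with a median of -0.88 (-0.49 relative to all genes). *CLN2*, a G1 cyclin gene, had 1542, 914 and 1049 in *top2ts* and 272, 390 and 522 in *top1Δtop2ts* (-1.58 ± 0.26), *CLN3*, which starts the transition, changed by -1.14 and *NRM1*, for a repressor of G1 genes, by -2.43. *SWI4*, for a subunit of the transcription factor SBF, was the member that rose (0.81 ± 0.26, adjusted p = 0.0274). Of 18 S phase genes 16 fell and 0 rose (median -0.92), led by *MCD1*, for a cohesin subunit, with -2.08 ± 0.16, and *RNR1*, for the large subunit of ribonucleotide reductase, with -1.41 ± 0.22. Of 14 genes of G2 and mitosis 8 fell, among them the cyclin genes *CLB1* (-2.05) and *CLB2* (-1.60), and 0 rose. This share was not far from the 45.0% of all genes, and the median was -0.65, or -0.26 relative to all genes. With equal medians 5 of these genes fell. The measured markers of S phase and of G2 and mitosis are themselves members of these lists or of the histone list. They are therefore no separate reading of cell cycle position. The 6 markers of S phase all fell and summed to 16005 to 25176 in *top2ts* and 6826 to 8385 in *top1Δtop2ts*, and the 6 measured of G2 and mitosis to 2256 to 4477 and 1540 to 1767, so that neither list was higher in *top1Δtop2ts*. What part a different hold of the arrest had in these changes was not tested.

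Genes induced by pheromone fell less evenly. Of 35 genes of the pheromone response 22 fell and 0 rose, with a median of -0.68, or -0.29 relative to all genes. With equal medians 16 fell and 2 rose, and after quantile normalization 12 fell and 6 rose. *FIG1*, needed for mating, had 10867, 13695 and 7305 in *top2ts* and 3116, 4774 and 2504 in *top1Δtop2ts* (-1.62 ± 0.16), and *PRM6* changed by -1.85. *FUS1*, a standard marker of the response, had 9319, 10066 and 7551 against 7093, 7329 and 6806, a change of -0.33 that did not pass the test (adjusted p = 0.102). The mating factor gene *MFA1* and the receptor gene *STE2* did not pass either, with -0.16 and -0.26. Of 7 markers of the arrest by pheromone 5 fell, *FAR1* (-0.87) among them, and 0 rose, with a median of -0.61. They summed to 50534 to 69366 in *top2ts* and 36653 to 41886 in *top1Δtop2ts*. Markers of the a cell summed to 58439 to 72584 in *top2ts* and 52225 to 55951 in *top1Δtop2ts*, with 1 of 7 lower. Of 5 measured markers of the α cell 1 rose, *MF(ALPHA)1*, whose signals went from 30.0, 23.3 and 16.0 to 103, 134 and 111 and were at least 4.71-fold higher, since 1 of the *top2ts* arrays was at the Tag level. *HMLALPHA1*, at a silent mating type locus, was at the Tag level in both groups. Of 15 silencing factor genes 7 fell, led by *SIR2* (-1.53), for a histone deacetylase of silent chromatin, and *SIR3* (-1.17), and 0 rose. The median of these 15 was -0.34, within 0.06 of the median of all genes.

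Genes of daughter cells and cell separation went both ways. Of 15 such genes, targets of the factor Ace2p among them, 6 fell and 6 rose. *ASH1*, for a repressor that acts in daughter cells, went from 5762, 6651 and 4415 to 861, 1021 and 833 (-2.62 ± 0.16), and *PIR1*, for a cell wall protein, fell by 1.69. *DSE2*, for an enzyme that degrades the cell wall between mother and daughter, rose from 168, 173 and 84.5 to 467, 1126 and 604 (2.34 ± 0.25), and *DSE1* (1.44) and the chitinase gene *CTS1* (0.77) rose as well.

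Ribosomal protein genes fell almost without exception. Of 127 measured genes 123 fell and 0 rose, with a median of -0.74, 73 of 75 for the large subunit and 50 of 52 for the small subunit. Relative to all genes the medians were -0.39 and -0.30. This depended on scaling, since with equal medians 40 and 21 fell, and after quantile normalization 17 and 9, with 0 rising in any case. *RPL3* stayed close within each group, at 16719, 17698 and 15666 in *top2ts* and 8327, 8643 and 8530 in *top1Δtop2ts* (-0.97 ± 0.15, adjusted p = 0.000967). Most of these proteins are encoded by pairs of near-identical genes, and the copies usually moved alike, with a median gap of 0.20 between the changes of both copies over 48 pairs. The gap was above 1 in 4 pairs. *RPS9A* went from 5769, 7641 and 3879 to 757, 745 and 484 (-3.10 ± 0.16), while *RPS9B* changed by -0.60 ± 0.16. *RPS22B* changed by -2.64 and *RPS22A* by -0.97, *RPL4B* by -2.14 and *RPL4A* by -0.50, and *RPL22B* by -2.16 and *RPL22A* by -1.14. Changes of single copies are uncertain where probe sets pick up both.

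Other parts of the protein synthesis machinery followed more weakly. Of 76 ribosome assembly genes 41 fell (median -0.44), of 11 for RNA polymerase I 6, of 15 for RNA polymerase III 10 and of 13 for RNA polymerase II and its basal factors 5, and 0 rose in these lists. Relative to all genes their medians were -0.05, -0.21, -0.29 and 0.04, and for ribosome assembly the sign turned to 0.09 after quantile normalization. Of 32 translation factor genes 23 fell, with *TIF4631*, for the initiation factor eIF4G, at -1.35, and 2 rose, *ANB1* (1.14) and *HEF3* (0.80), which are close relatives of genes for common factors and are used in other growth conditions. Amino acid synthesis stood out among metabolic lists. Of 59 genes 52 fell and 0 rose (median -0.93, or -0.53 relative to all genes), with 37 lower and 1 higher under equal medians. *HIS4* had 11227, 10417 and 7992 in *top2ts* and 3290, 3649 and 2900 in *top1Δtop2ts* (-1.58 ± 0.16, adjusted p = 0.000109), and *LYS2* fell by 1.59. *GCN4*, for the activator of these genes, changed by -0.31 and did not pass. Genes for mitochondrial ribosomal proteins and for the proteasome did not share the fall. Of 66 of the former 5 fell and 10 rose (median 0.10), and of 33 of the latter 0 fell and 2 rose, *RPN10* (0.63) and *PRE4* (0.57). Relative to all genes their medians were 0.50 and 0.51, and with equal medians 36 and 23 rose.

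**Figure D4:**
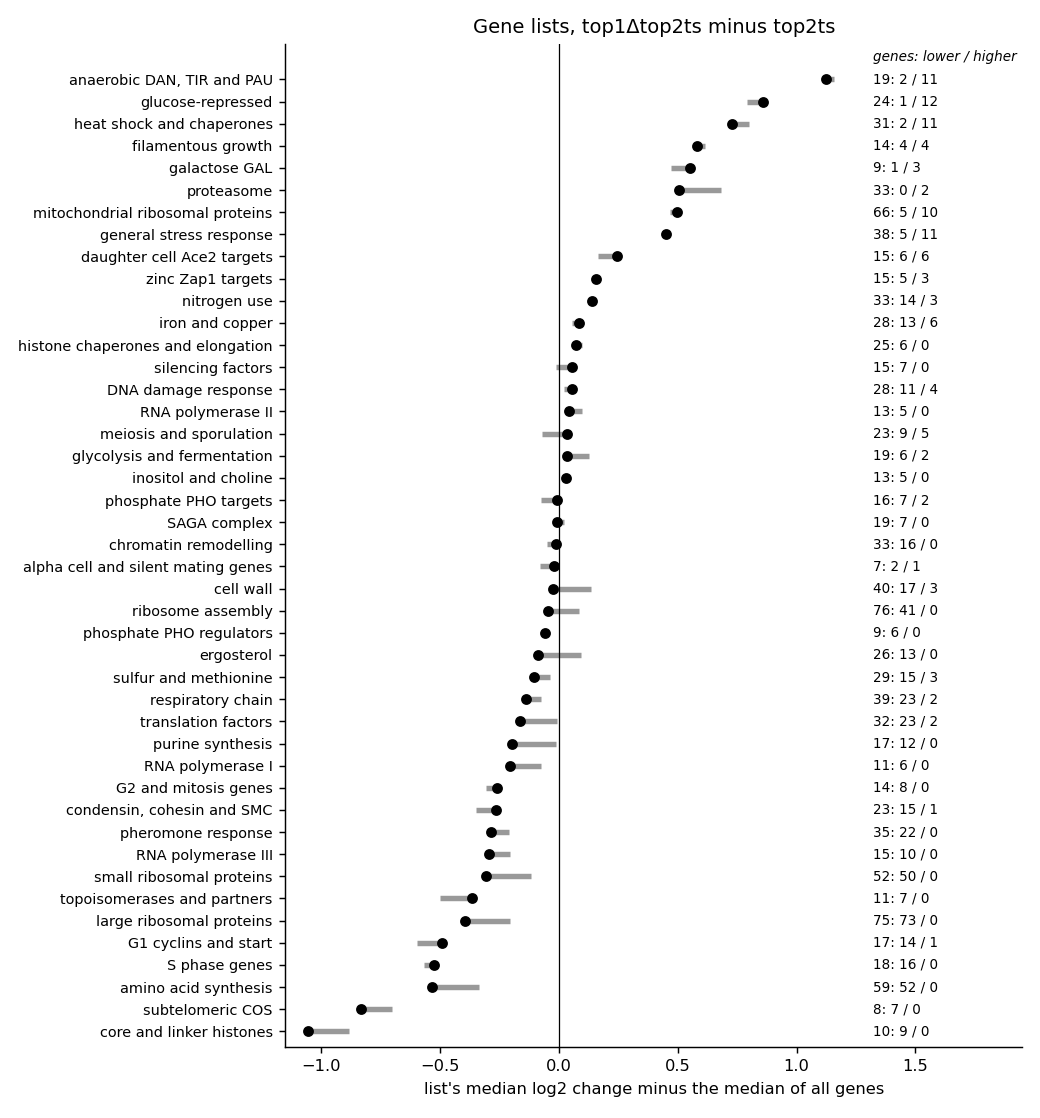
Median log2 change (*top1Δtop2ts* minus *top2ts*) of 44 gene lists, each minus the median of all genes. Points show the scaling to all spike-ins, grey lines the range over the other scalings, and the numbers at the right the measured genes with those that fell and rose in limma. Histones lie at -1.06 and the anaerobic cell wall genes at 1.12, and lists near 0 followed the general fall.

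Among the rises, cell wall genes of anaerobic growth were prominent. Of 19 measured *DAN*, *TIR* and *PAU* genes 11 rose and 2 fell, with a median of 0.73, or 1.12 above that of all genes. *DAN1*, for a mannoprotein made without oxygen, had signals of 18.1, 2.85 and 14.0 in *top2ts*, of which 2 were at the Tag level, and 328, 339 and 363 in *top1Δtop2ts*, at least 17.3-fold higher (adjusted p = 2.60e-05). Wild-type and *top1Δ* cells had means of 23.9 and 8.89. *PAU24* rose from 153, 121 and 105 to 669, 369 and 778 (2.21 ± 0.23) and *TIR1* by 1.19, while *PAU18* (-1.75) and *PAU4* (-1.39) fell. *PAU* genes are a near-identical family, so these values are uncertain for a single gene. *YFR057W*, an uncharacterized gene at a chromosome end, went from at most 6.56 in *top2ts* to 57.5, 54.9 and 57.0, at least 3.00-fold higher. The 8 measured *COS* genes, another subtelomeric family with similar copies, went the other way, with 7 lower and 0 higher. Among them were *COS8* (-1.70) and *COS6* (-1.38) besides *COS12*.

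Genes of filamentous growth were found at both ends. *PGU1*, for a secreted pectinase, rose from 149, 155 and 97.6 to 3097, 3303 and 2599 (4.51 ± 0.16, adjusted p = 4.34e-07), and *FLO11*, for the flocculin of filaments, from 162, 113 and 120 to 676, 487 and 860 (2.33 ± 0.19). *FLO8*, for an activator of *FLO11*, rose by 1.77 and *KSS1*, for the kinase of this pathway, by 1.14, and *SVS1*, for a cell wall protein, fell by 2.33. Of 14 genes on this list 4 rose and 4 fell. In *PGU1* the *top1Δtop2ts* arrays were more than 4-fold above all 9 other arrays, as they were in *DAN1*, *YFR057W*, *ANS1*, which encodes a putative cell wall protein and was at least 12.5-fold higher, and *ZPS1* (2.96), a zinc-regulated gene. *HPF1*, for a cell wall mannoprotein, had 2177, 1208 and 837 in *top2ts* and 7723, 8063 and 8283 in *top1Δtop2ts* (2.62 ± 0.25).

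Genes that glucose represses and genes of the heat shock response rose more than most. Of 24 glucose-repressed genes 12 rose and 1 fell (median 0.46, or 0.86 relative to all genes). *POT1*, for a peroxisomal thiolase of fatty acid oxidation, rose from 44.8, 34.8 and 23.5 to 302, 292 and 266 (3.11 ± 0.18), *HXT7*, for a high-affinity glucose transporter, by 2.44 and *SUC2*, for invertase, by 1.54. In wild-type the mean of *HXT7* was 8241, above the 4499 of *top1Δtop2ts*, and its probe set may also take up its near-identical neighbour *HXT6*, which was not tested. *PUT4*, for the proline permease, is on another list, of nitrogen use, and went from 152, 129 and 114 to 954, 958 and 1660 (3.13 ± 0.23). Of 33 genes on that list 14 fell, such as *MEP3* (-2.11) and *BAP3* (-1.68), and 3 rose, against 45.0% and 6.46% of all genes. Of 31 genes for heat shock proteins and chaperones 11 rose and 2 fell (median 0.33, or 0.73 relative to all genes). *HSP26*, for a small heat shock protein, went from 3164, 1228 and 2388 to 8353, 9062 and 11221 (2.17 ± 0.25), and *SSA3* (2.14), *SSA4* (1.53) and *HSP82* (1.03), for chaperones, rose as well. The constitutive chaperone gene *SSA1* changed by -0.18 (adjusted p = 0.345). Both strains spent the same time at 37°C. Of 38 genes of the general stress response 11 rose and 5 fell, with *YGP1* (2.18) and *GRE1* (2.01) at the top, and *GRE2*, for a reductase, rose from 298, 392 and 270 to 786, 969 and 736 (1.38 ± 0.15).

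Genes that the study used as models of regulated promoters differed in their response to Top1 loss here. *PHO5*, for the secreted acid phosphatase, had 383, 302 and 191 in *top2ts* and 268, 227 and 308 in *top1Δtop2ts*. The groups overlapped and the change was -0.08 ± 0.23 (adjusted p = 0.791), though it was -0.46 without replicate 3 (adjusted p = 0.0201). Both strains were low, since *PHO5* had 3913, 1586 and 2397 in wild-type. Other targets of the phosphate regulator Pho4p fell, with 4932, 6395 and 4551 against 1371, 1392 and 2326 for the transporter gene *PHO84* (-1.67 ± 0.23), -1.70 for *PHM8* and -0.98 for *VTC3*. Of 16 such targets 7 fell and 2 rose, with a median of -0.40, equal to that of all genes within 0.01. The galactose genes *GAL1*, *GAL10* and *GAL7*, which encode enzymes of galactose use and were repressed in glucose medium, rose by 1.16 ± 0.17, 1.08 ± 0.22 and 0.83 ± 0.19. *GAL1* went from 145, 135 and 137 to 291, 380 and 272, while *GAL2*, for the galactose transporter, changed by 0.21 (adjusted p = 0.353). *ADH2*, for an alcohol dehydrogenase that glucose represses, *INO1*, for inositol synthesis, and *PHO8*, for the vacuolar phosphatase, did not pass the test, with -0.07, -0.20 and -0.23. *ADY2*, for an acetate transporter, fell by 1.03, and *YAT1*, for a carnitine acetyltransferase, rose by 0.58. *ACT1* for actin and *TDH1* for a glycolytic dehydrogenase had -0.27 and -0.31, neither past the test (adjusted p = 0.156 and 0.172).

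The 10 genes of highest signal in *top2ts* did not fall most. Their changes ran from -0.97 to -0.27, and 6 of 10 passed the test. Besides *RPL3*, they included *ENO2* for enolase (-0.36, adjusted p = 0.0975), *YEF3* for a translation elongation factor (-0.49, adjusted p = 0.0248) and 4 open reading frames of Ty retrotransposons, such as *YBL100W-A* (-0.69, adjusted p = 0.00530) and *YIL082W-A* (-0.27, adjusted p = 0.157). Ty elements exist in many copies that share probe sets.

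Fewer genes passed the test for the same loss of Top1p where Top2p was active. In the paired fit of *top1Δ* against wild-type, 753 genes fell (13.8%) and 30 rose (0.551%), and 339 genes fell and 9 rose in both comparisons. The median change with Top2p active was -0.21. The counts come from fits of unlike precision, since every gene had an SE of 0.21 there, against a median SE of 0.17 without Top2 activity. Across genes the changes in both Top2 states had a Pearson's r of 0.095 and a Spearman's rho of 0.11. These comparisons have no arrays in common. The difference between them, (*top1Δtop2ts* minus *top2ts*) minus (*top1Δ* minus wild-type), was tested over 12 arrays in a paired fit. The difference was negative for 731 genes (13.4%) and positive for 449 (8.24%). These counts depended on the arrays used. They were 340 and 281 without replicate 1, 209 and 441 without replicate 2, where the balance turned, and 459 and 249 without replicate 3. With no pairing the negative count was 422, and 1105 when the *top2ts* array of replicate 3 was also left out. With the trp probe sets left out of the scaling it was 1103. Differences were negative for 33 of 59 amino acid synthesis genes, 28 of 127 ribosomal protein genes and 7 of 10 histone genes, with 0 positive in these lists. They were positive for 18 of 24 glucose-repressed genes, 16 of 38 stress genes and 12 of 31 heat shock genes, with 0 negative. A positive difference can come from a fall in *top1Δ* as well as from a rise here. In the same order, the medians of these lists were -0.82, -0.39 and -0.16 in *top1Δ* and 0.46, 0.06 and 0.33 here. *PHO5* also had a positive difference without a rise here, with a change of -3.37 in *top1Δ* and -0.08 here (difference 3.29, adjusted p = 2.21e-06). *HXT7* fell by 0.92 on the log2 scale in *top1Δ* and rose by 2.44 here (difference 3.36). *HTB2* changed by 0.10 in *top1Δ* and by -3.37 here (difference -3.47). *TOP1* itself was at the Tag level in all arrays of both strains that lack it, so that its losses cannot be compared.

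**Figure D5:**
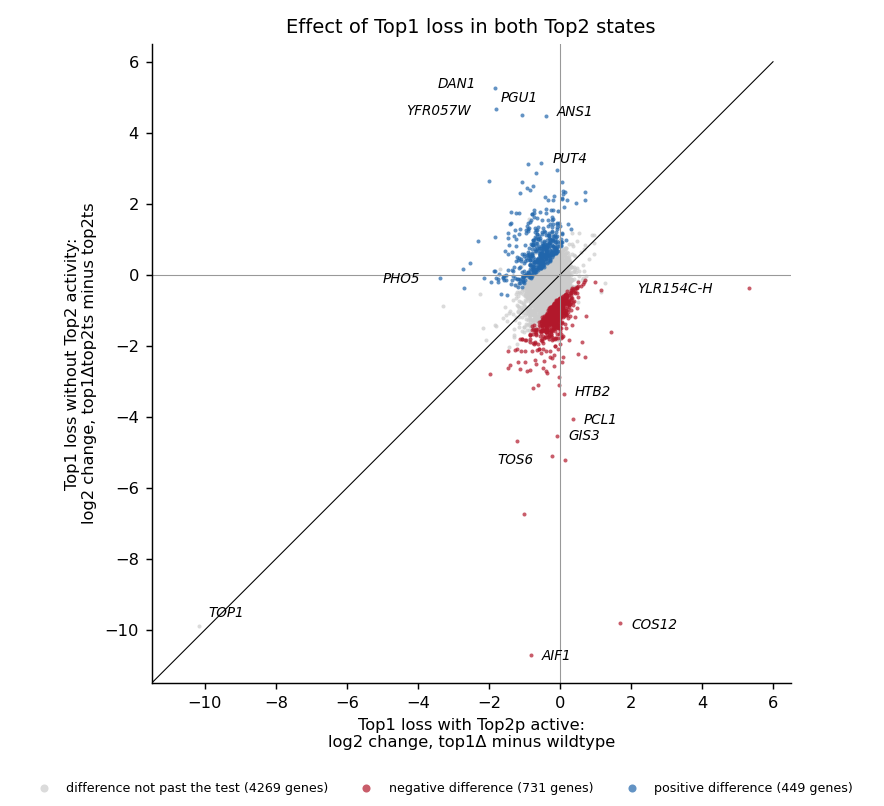
Log2 change on Top1 loss with Top2p active (*top1Δ* minus wild-type, horizontal) and without Top2 activity (*top1Δtop2ts* minus *top2ts*, vertical) for 5449 genes. The diagonal marks equal changes, and colours mark the 731 negative and 449 positive differences in limma. Positions of genes at the Tag level, such as *TOP1*, *COS12* and *AIF1*, have no firm size, whereas *TOS6* and *HTB2* changed by -0.23 and 0.10 with Top2p active and by -5.12 and -3.37 without it.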

How the data were processed

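Intensities were used as deposited, on the linear MAS5 scale that the authors computed, with 1 signal per probe set and array. Columns of no sample numbered 0. The table had 10928 probe sets, 5028 of them at 0 in every array, and 5498 were paired with 1 *S. cerevisiae* gene. Averaging per gene on the log2 scale left 5449 genes, and 4 values of 0 were raised to 0.1. Names, gene order and coding lengths (97.0% divisible by 3) came from assembly R64. Each array was divided by the geometric mean of its spike-ins. The paired model had the replicate number as a block in limma 3.58.1 (R 4.3.3), over 6 arrays with 2 residual and 7.61 prior degrees of freedom. Its p-values are two-sided, with Benjamini-Hochberg adjustment over all genes at 0.05. The median SE was 0.17, and the number of arrays limits the precision. Same-numbered arrays deviated together from their group means (r = 0.18, 0.25 and 0.15 across genes), which together with the methods was the basis for pairing. No arrays were identical (r = 0.904 to 0.991). Where a group lay at the Tag level, or some of its arrays did, the fold is a bound with each such array raised to its own Tag level, the 95th percentile of 17 Tag probe sets over the table scaled like that array. Differences with this floor were added after seeing the data.

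The fit was tested on simulated data over 5449 genes, where it found 55 of 100 genes changed by 1 and 92 of 100 changed by 2 on the log2 scale, and made 7 false calls. These data had as many rises as falls, no shared deviation of same-numbered arrays and no spread like that of trp. For this reason the simulation cannot show how many calls in the real arrays are false. Summed signals were compared by an exact permutation test (Python 3.11.15, numpy 2.4.6, scipy 1.17.1). The members and gene lists were chosen with earlier results of these data known, and list counts are descriptions. Named were *TOP1*, *TOP2*, the 15 largest falls and rises among genes with non-overlapping groups that moved alike in all pairs and exceeded the Tag level, the 10 brightest genes, up to 4 members per list that passed (or the brightest ones), the 10 largest differences in each direction and genes the study uses. Other genes in the text were chosen after their values were seen. Alternatives were other scalings, floors, filters, probe set rules and fits, and leaving out arrays. Scaling without trp in the unpaired fit was added after seeing the data. Sequences, genome coordinates and present calls were not used here.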

Additional observations from a re-analysis of the deposited data

Results flagged for a closer look

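For 20 genes the effect of Top1 loss differed most between cells without and with Top2 activity, by limma's test of the difference over 12 arrays with paired replicate numbers. Positive differences were 7.09 for *DAN1*, 6.46 for *YFR057W*, 5.56 for *PGU1*, 4.89 for *ANS1*, 4.64 for *YBR221W-A*, 4.02 for *POT1*, 3.68 for *HPF1*, 3.66 for *PUT4*, 3.55 for *YML054C-A* and 3.43 for *YNL034W* on the log2 scale. All 10 rose on Top1 loss without Top2 activity and had a log2 change below 0 with Top2p active. Sizes that involve signals at the Tag level have no firm base. With every signal under the Tag level of its array raised to it, the difference was 4.54 for *DAN1*, 4.32 for *ANS1* and 1.63 for *YFR057W*, and 0.08 for *YBR221W-A* and -0.03 for *YML054C-A*, for which no difference above background remained. Negative differences were -11.51 for *COS12*, -9.90 for *AIF1*, -5.72 for *YGL262W*, -5.35 for *YNR071C*, -4.46 for *GIS3* and -3.47 for *PDR18*, the genes that were high in *top2ts* alone. With the same floor these became -4.88 for *COS12*, -6.09 for *AIF1*, -2.88 for *YGL262W*, -3.33 for *YNR071C* and -2.35 for *PDR18*. Negative differences were also found with -4.89 for *TOS6*, -4.42 for *PCL1* (-4.03 with the floor) and -3.47 for *HTB2*, which were low in *top1Δtop2ts* alone.

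The last was -5.70 for *YLR154C-H* (adjusted p = 0.00914), an open reading frame within the repeated ribosomal DNA. Its signals were 1625, 1301 and 959 in *top2ts* but 3901, 59.7 and 3992 in *top1Δtop2ts*, so that the array of replicate 2 stood apart and decided the sign. The change was -0.37 over all pairs (adjusted p = 0.758) and 1.66 without replicate 2, while its signals were far apart with Top2p active, at means of 179 in wild-type and 5645 in *top1Δ*.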

How the results depend on the processing

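Over 22 alternatives for 207 named genes and 20 differences, 4663 outcomes kept their side of the threshold, 276 lost the call and 19 gained it. The other 3 changed sign with a call before or after the change. They were *YLR154C-H* without replicate 2 (1.66, and 1.64 in the unpaired fit) and *VTC1* after quantile normalization (0.094). The change of *YLR154C-H* ranged from -1.59 to 1.66 when any array or pair was left out. Outcomes that changed sign with no call on either side were counted among those kept. No gene called in 1 direction was called in the other under any setting. In the signals as deposited, with no scaling to the spike-ins here, the median change was -0.32 and the summed signal 73.2% of *top2ts*. There 2221 genes were lower and 478 higher. Equal medians and quantile normalization take out a general shift by their design, so they cannot show whether the general fall is real. With equal medians and quantile normalization, in this order, the median change was -0.036 and 0.0075, the summed signal 90.3% and 100% of *top2ts*, genes lower 1178 and 1036, higher 1003 and 1014, down 2-fold 239 and 222, up 2-fold 242 and 230, and positive differences 882 and 859. With the median of the spike-ins the sum was 65.3% and negative differences numbered 1317, and without trp 1103. Without the replicate block 1792 genes were lower, 269 higher and 422 differences negative, and also without trp 332 were negative and 247 positive. Leaving out a pair or an array gave 947 to 3260 genes lower, 169 to 332 higher, a sum of 63.9% to 73.9%, 499 to 1006 genes down 2-fold, 249 to 441 positive and 209 to 1105 negative differences, and an r with abundance of -0.28 to -0.21. The highest counts of lower genes came without replicate 3 or its *top2ts* array. That r was -0.083 after quantile normalization, -0.29 with a floor of 10 and -0.35 with abundance from *top2ts*, and r with coding length was 0.0085 after quantile normalization. Causes were not tested. Signals near the Tag level have no reliable order.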

Other observations

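Of 23 genes for condensin, cohesin and related complexes 15 fell and 1 rose, against 45.0% and 6.46% of all genes, with a median of -0.66, or -0.26 relative to all genes. Besides *MCD1*, the condensin genes *YCG1* (-1.27) and *YCS4* (-0.93) fell, and *SMC5* rose by 0.52. Of 33 genes for chromatin remodelling complexes 16 fell and 0 rose, led by the SWI/SNF subunit gene *SWI1* (-1.78), and of 19 for the coactivator SAGA 7 fell and 0 rose, with *GCN5*, for its histone acetyltransferase, at -0.87. These shares are near or below that of all genes, and the medians relative to all genes were -0.013 and -0.0092.

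Several lists were divided, where 45.0% of all genes fell and 6.46% rose. Of 28 iron and copper genes 13 fell, such as *CTR3* for a copper transporter (-1.67), and 6 rose, such as the reductase gene *FRE4* (1.19) and the siderophore transporter gene *SIT1* (1.27). Of 28 genes of the DNA damage response 11 fell, led by *TOS4* (-1.67), *RNR1* (-1.41) and *RAD55* (-1.31), and 4 rose. Those that rose were *HUG1* (1.30) and *RNR3* (0.94), which are induced by DNA damage, *RAD52* (0.95) and *DDC1* (1.18). Of 29 sulfur and methionine genes 15 fell, led by *MET16* (-1.91), and 3 rose. Of 39 respiratory chain genes 23 fell and 2 rose, *CYC7* (1.11) and *COX5B* (0.43), which encode the forms used when oxygen is scarce, while *COX5A*, for the aerobic form of the same subunit, fell (-0.76). Of 23 genes of meiosis and sporulation 9 fell and 5 rose. Relative to all genes the medians were 0.09 for iron and copper, 0.05 for DNA damage and -0.10 for sulfur and methionine. They were -0.14 for the respiratory chain and 0.04 for meiosis and sporulation, so that these lists largely followed the general fall.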
